A study of Mus musculus with 9 samples.

Results

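The genes described here are 8 secreted factors through which hepatic stellate cells act on their neighbours: Hgf, Kitl, Ecm1, Colec10, Colec11, Angptl6, Csf1 and Il34. They were chosen by name for their known roles, with earlier results of these data known. All 8 were found among the 24453 genes of the deposited table. All 8 also passed the filter on low counts, which left 13651 genes in the tests.

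RNA-seq was performed on 9 libraries in 3 groups of 3, each made from the pooled cells of 3 to 5 mice, and all libraries were labelled with the strain C57BL/6J. HSCs, the hepatic stellate cells of normal livers of wild-type mice, were taken with a density gradient. CCl4-fib were sorted as CD45- GFP+ cells from the fibrotic livers of Col1a2-GFP Tg mice injected intraperitoneally with carbon tetrachloride (CCl4), a hepatotoxin, 2 times a week for 8 weeks. NASH-fib were sorted through the same gate from male Col1a2-GFP Tg MC4R-KO (MC/COL) mice, which lack the melanocortin 4 receptor and were fed Western diet for 20 weeks from the age of 8 weeks as a model of non-alcoholic steatohepatitis (NASH). The collagen α2(I) promoter drives the GFP of both fibroblast groups, so that the gate selected collagen-producing cells of any origin, whereas no such gate was applied to HSCs. The disease, the transgene and the isolation method therefore cannot be told apart in a comparison with HSCs, and MC4R deficiency, diet and CCl4 cannot be told apart between the fibroblast groups. The age and sex of the other mice are not given in the sources used here.

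In the healthy liver, stellate cells lie between hepatocytes and the sinusoidal endothelium, store vitamin A and release factors that act on both. Hgf encodes hepatocyte growth factor, a mitogen for hepatocytes that signals through the receptor tyrosine kinase MET after proteases have cleaved its precursor. Kitl encodes stem cell factor, the ligand of KIT. Csf1 and Il34 encode both ligands of the macrophage receptor CSF1R, and IL-34 also binds the receptor phosphatase PTPRZ1. Colec10 and Colec11 encode the collectins CL-L1 and CL-K1, soluble lectins that recognise sugars and start the lectin pathway of complement with MASP proteases. Ecm1 encodes a secreted matrix protein known to hold latent TGFβ inactive in the liver, and Angptl6 encodes an angiopoietin-like secreted protein. When injured, stellate cells lose their lipid stores, make collagen and turn into myofibroblasts.

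The genes are spread over 7 chromosomes. In mm10, as the deposited table places the counted transcripts, Hgf lies at chr5:16553495-16619439, Kitl at chr10:100015824-100100412, Ecm1 at chr3:95734148-95739569, Csf1 at chr3:107741048-107760469, Colec10 at chr15:54410774-54466358, Colec11 at chr12:28594172-28623330, Angptl6 at chr9:20873809-20879710 and Il34 at chr8:110741829-110805924. Their exons were counted together, from 1415 bases in Colec11 to 5438 bases in Kitl. The promoters of 4 factors are shown because 3 of these genes, Hgf, Colec11 and Angptl6, were lower in both fibroblast groups while Kitl was higher in NASH-fib. The sequences, 250 bases before to 50 bases after the start of each gene, came from RefSeq on GRCm38.p6 (mm10) and are written 5′ to 3′ on the strand of the gene. They lie at chr5:16553245-16553544 on the plus strand for Hgf, chr12:28623281-28623580 on the minus strand for Colec11, chr9:20879661-20879960 on the minus strand for Angptl6 and chr10:100015571-100015870 on the plus strand for Kitl. Capitals mark matches, on either strand, to the TATA box TATAAA, the GC box GGGCGG, the nuclear receptor core motif AGGTCA and the LIM homeobox core TAATTA.
Hgf: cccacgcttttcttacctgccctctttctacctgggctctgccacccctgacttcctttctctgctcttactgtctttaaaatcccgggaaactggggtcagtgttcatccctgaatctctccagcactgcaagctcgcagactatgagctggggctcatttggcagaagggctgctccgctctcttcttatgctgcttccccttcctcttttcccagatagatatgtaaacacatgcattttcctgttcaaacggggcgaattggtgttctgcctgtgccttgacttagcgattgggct
Colec11: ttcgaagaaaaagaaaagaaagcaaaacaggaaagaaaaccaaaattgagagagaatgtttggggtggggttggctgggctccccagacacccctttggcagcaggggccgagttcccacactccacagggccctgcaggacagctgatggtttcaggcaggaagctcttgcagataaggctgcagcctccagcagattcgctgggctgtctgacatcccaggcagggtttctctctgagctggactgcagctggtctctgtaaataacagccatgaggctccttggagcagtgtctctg
Angptl6: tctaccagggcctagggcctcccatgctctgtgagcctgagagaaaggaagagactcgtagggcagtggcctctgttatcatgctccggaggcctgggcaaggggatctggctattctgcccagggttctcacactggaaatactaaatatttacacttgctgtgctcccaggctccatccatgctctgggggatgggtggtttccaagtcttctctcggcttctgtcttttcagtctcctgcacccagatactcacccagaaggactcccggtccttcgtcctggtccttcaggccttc
Kitl: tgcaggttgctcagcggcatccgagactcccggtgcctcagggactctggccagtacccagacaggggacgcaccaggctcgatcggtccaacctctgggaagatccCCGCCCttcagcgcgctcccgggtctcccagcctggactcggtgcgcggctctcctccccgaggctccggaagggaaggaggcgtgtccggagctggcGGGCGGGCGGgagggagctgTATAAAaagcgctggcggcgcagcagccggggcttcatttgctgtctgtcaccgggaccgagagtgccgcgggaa
The windows of Hgf, Colec11 and Angptl6 held none of the 4 motifs and 7, 3 and 5 CpG dinucleotides, against a median of 7 over all 32851 promoters in the same table. The Kitl window differed in composition, with 28 CpG dinucleotides, a GC content of 68.7% against a median of 52.7%, a TATAAA 25 bases before the start and 3 GC boxes, of which 2 overlap. TATAAA was present in 13.6% of all promoters, GGGCGG in 35.7%, AGGTCA in 16.3% and TAATTA in 5.29%. Promoters of Ecm1 and Csf1 were also found, with 2 and 16 CpG dinucleotides, and each held GGGCGG, with a TATAAA in Ecm1 as well.

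Values are given on the scale of the deposited table, reads on exons multiplied by 1 factor per library, and 1 read was worth 0.794 to 1.46 of these units. Where a group has 3 values, they stand in the order of its replicates 1, 2 and 3. The libraries held 3071070 to 3825522 reads on genes in HSCs, 4687349 to 5634273 in CCl4-fib and 3289758 to 5021156 in NASH-fib. Mc4r, deleted in the NASH model, had 0 reads in all HSC and CCl4-fib libraries and 4, 13 and 0 reads in NASH-fib, so that the few reads lay in 2 libraries labelled as deficient. Which part of the gene the mutation removes is not given in the sources used here, and Mc4r therefore gave no check of the labels. The summed level of 10 quiescent stellate cell markers was 30484 to 42624 in HSCs and 2209 to 3073 in the fibroblasts, and that of 10 activated fibroblast markers was 9086 to 12606 in HSCs, 53299 to 60766 in CCl4-fib and 29497 to 34402 in NASH-fib. HSC 2 and NASH-fib 1 stood apart from their groups in the same direction, with a correlation of 0.65 between their deviations from the group means across the 13651 genes, which are not independent. Their labels share the leading number 11-3, which reads as a date. CCl4-fib 1 bears that number as well. Its deviations correlated at -0.07 with those of HSC 2 and at -0.13 with those of NASH-fib 1. Of the 8 factors, Colec10 and Kitl were highest and Ecm1, Colec11 and Il34 were lowest of their group in both HSC 2 and NASH-fib 1.

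**Figure D1:**
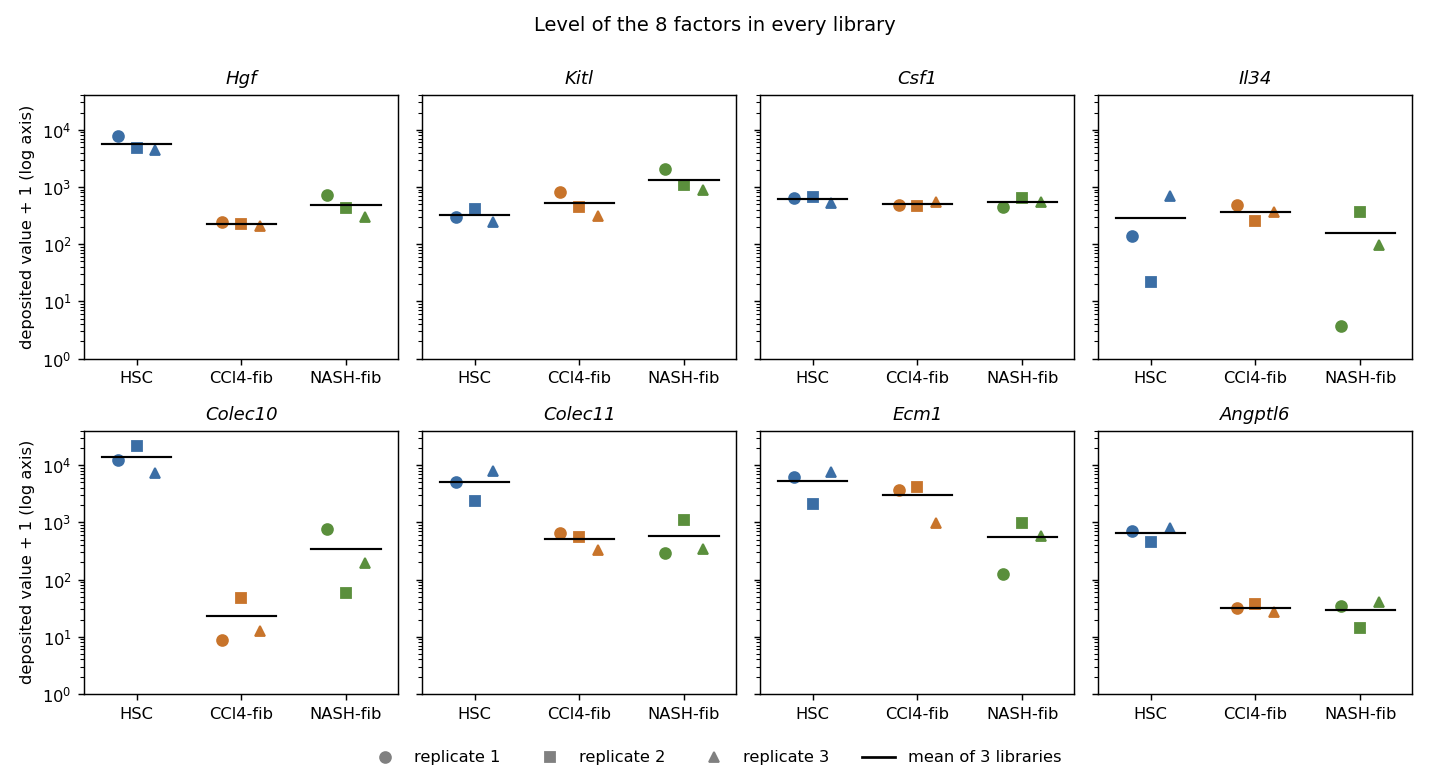
Level of each factor in every library, as deposited value plus 1 on a log axis. Symbols mark replicates and lines the mean of 3 libraries. Hgf, Colec10, Colec11 and Angptl6 lie lower in all 6 fibroblast libraries than in any HSC library, Kitl is highest in NASH-fib, and Csf1 keeps between 451 and 677 in all 9.

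Hgf was far lower in both kinds of fibroblast than in HSCs. HSC 1, 2 and 3 had values of 7688, 4867 and 4418, the CCl4-fib libraries of 248, 228 and 207, and the NASH-fib libraries of 734, 429 and 299.8. The groups did not overlap, with every HSC library above every NASH-fib library and every NASH-fib library above every CCl4-fib library. The mean was 5658 ± 1773 (SD, n = 3) in HSCs, 24.9-fold that of CCl4-fib (228 ± 20.3) and 11.6-fold that of NASH-fib (488 ± 223). With limma on log2(value + 1) across all genes and Benjamini-Hochberg adjustment, the log2 fold change against HSCs was -4.59 (SE 0.39, adjusted p = 3.81e-05) in CCl4-fib and -3.59 (SE 0.39, adjusted p = 0.000185) in NASH-fib. A gene was called when this log2 fold change was at least 1 in size with an adjusted p below 0.05, and both decreases were called. In these bulk samples fewer cells of a type and less RNA per cell cannot be told apart. Between the fibroblast groups the log2 difference of 1.002 (SE 0.39) was not called, with a limma adjusted p of 0.121. Exons of Hgf share 484 bases with Gm43489 on the same strand, which is not a row of the table.

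Both collectin genes fell in fibroblasts, Colec10 by far the more. Colec10 had values of 12536, 21263 and 7361 in the HSC libraries, 7.94, 46.8 and 11.45 in CCl4-fib, and in NASH-fib 767, 57.9 and 197. The mean of HSCs, 13720.1 ± 7026 (SD, n = 3), was 622-fold that of CCl4-fib and 40.3-fold that of NASH-fib. The limma log2 fold change was -9.49 (SE 0.89, adjusted p = 6.07e-05) in CCl4-fib and -5.92 (SE 0.89, adjusted p = 0.00138) in NASH-fib. Every NASH-fib library was above every CCl4-fib library, though NASH-fib 2 and CCl4-fib 2 lay close, and the difference, 3.57 on the log2 scale, was called (SE 0.89, limma adjusted p = 0.0317). This last call was lost in 6 of the 9 fits that left out 1 library, with an adjusted p of 0.0515 without HSC 1, 0.112 without CCl4-fib 1, 0.0516 without CCl4-fib 2, 0.0982 without CCl4-fib 3, 0.0714 without NASH-fib 1 and 0.0862 without NASH-fib 3. Without NASH-fib 1 the log2 fold change was 2.63. The 10 hepatocyte markers summed to 35936, 12907 and 36327 in NASH-fib 1, 2 and 3 and to 12093 to 15651 in CCl4-fib, in the same order among groups as Colec10. Of the CCl4-fib sums, 9622 to 12316 came from Trf alone, which was 4856 to 7841 in NASH-fib. The sums of sinusoidal endothelial and macrophage markers, given below, ran in the same order among groups. The part of these cells in the Colec10 difference was not tested.

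Colec11 was about equally low in both kinds of fibroblast. Its value was 5032.5, 2395 and 7751 in the HSC libraries, 658, 549 and 322 in CCl4-fib, and in NASH-fib 285, 1087 and 346. The lowest HSC library was above all fibroblast libraries, whereas CCl4-fib and NASH-fib overlapped. The mean of HSCs was 9.93-fold that of CCl4-fib and 8.83-fold that of NASH-fib, with limma log2 fold changes of -3.21 (SE 0.58, adjusted p = 0.00237) and -3.25 (SE 0.58, adjusted p = 0.00371). The fibroblast groups differed by -0.04 (SE 0.58) on the log2 scale, with a limma adjusted p of 0.972. Counting was set to keep at most 3 reads per position, which can lower the value of a densely covered gene, and its part in these levels was not tested. Among the factors more than 3 reads per base of exon were counted for Colec11 in HSC 1 and 3, at 3.04 and 4.58 reads per base, for Colec10 in HSC 2 at 3.19 and for Ecm1 in HSC 3 at 3.32.

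Angptl6 fell in fibroblasts to a similar level in both models. It had values of 707, 453 and 794 in the HSC libraries, 30.95, 35.7 and 25.8 in CCl4-fib, and in NASH-fib 34.0, 13.4 and 39.3. All HSC libraries were above all fibroblast libraries, and the fibroblast groups overlapped. The mean of HSCs, 651 ± 177 (SD, n = 3), was 21.1-fold that of CCl4-fib and 22.5-fold that of NASH-fib, and the limma log2 fold changes were -4.33 (SE 0.48, adjusted p = 0.000136) and -4.54 (SE 0.48, adjusted p = 0.000168). The antisense gene A230050P20Rik shares 265 exon bases with Angptl6, and counting on both strands gives reads there to both genes. Its own values were 558 to 725 in HSCs, 40.1 to 60.4 in CCl4-fib and 36.5 to 84.3 in NASH-fib, so that it was lower in the same libraries.

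Ecm1 was lower in NASH-fib than in HSCs, while CCl4-fib lay between. Its value was 6128, 2060.5 and 7481 in the HSC libraries, 3713, 4224 and 985 in CCl4-fib, and in NASH-fib 124, 958 and 582. HSCs and CCl4-fib overlapped, and every NASH-fib library was below every other library. The mean of NASH-fib, 555 ± 418 (SD, n = 3), was 9.42-fold below that of HSCs (5223 ± 2821) and 5.36-fold below that of CCl4-fib (2974 ± 1742). The decrease from HSCs, -3.47 on the log2 scale, was called (SE 0.82, limma adjusted p = 0.0173), but not without HSC 1 (adjusted p = 0.0706) or HSC 3 (adjusted p = 0.0604). CCl4-fib differed from HSCs by -0.87 (SE 0.82, limma adjusted p = 0.447). The difference of -2.60 between the fibroblast groups (SE 0.82) missed the threshold at a limma adjusted p of 0.0678, and reached it without HSC 2 (adjusted p = 0.0497) or NASH-fib 2 (adjusted p = 0.0367).

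Kitl was the factor that rose, and the increase was called in NASH-fib. It had values of 297, 416 and 241.5 in the HSC libraries, 809.6, 442 and 312 in CCl4-fib, and in NASH-fib 2032, 1089 and 896. All NASH-fib libraries were above all other libraries, whereas CCl4-fib 3 lay within the range of HSCs. The mean of NASH-fib, 1339 ± 608 (SD, n = 3), was 4.21-fold that of HSCs (318 ± 89.4) and 2.57-fold that of CCl4-fib (521 ± 258). Against HSCs the limma log2 fold change was 2.01 (SE 0.45, adjusted p = 0.0132), with the call lost by a small margin without HSC 1 (adjusted p = 0.0502). CCl4-fib differed from HSCs by 0.63 (SE 0.45, adjusted p = 0.315), and NASH-fib from CCl4-fib by 1.38 (SE 0.45, adjusted p = 0.0759), and neither difference was called by limma.

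The ligands of the macrophage receptor showed no called change. Csf1 had values of 632, 677 and 520.1 in the HSC libraries, 483, 461 and 537 in CCl4-fib, and in NASH-fib 451, 643 and 535. All 3 groups overlapped, and the log2 fold change was -0.30 (SE 0.30, limma adjusted p = 0.480) in CCl4-fib and -0.17 (SE 0.30, limma adjusted p = 0.841) in NASH-fib. Il34 varied widely within groups, with values of 140.3, 20.4 and 697 in the HSC libraries, 473, 250.9 and 363.5 in CCl4-fib, and in NASH-fib 2.72, 366 and 95.3. The lowest libraries were HSC 2 and NASH-fib 1, the pair that stood apart, and the latter rested on 2 reads. The log2 fold change of Il34 had an SE of 1.55, and was 1.46 in CCl4-fib (limma adjusted p = 0.506) and -1.33 in NASH-fib (limma adjusted p = 0.728). Without NASH-fib 1 the latter was 0.55, so that no direction can be given for Il34 in NASH-fib.

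In CCl4-fib against HSCs, 4 factors were called lower and 0 higher, with limma adjusted p-values under 0.05 for 11.7% of all tested genes lower and 16.2% higher at the same fold. These 4, Hgf, Colec10, Colec11 and Angptl6, were also the factors whose libraries did not overlap, a separation found downward in 20.9% and upward in 27.8% of all genes. The median log2 fold change of the 8 factors was -2.04, against 0.18 for all tested genes. In NASH-fib against HSCs, 5 factors were called lower, the same 4 and Ecm1, and Kitl was called higher, against a background of 4.3% of genes lower and 8.23% higher. The same 6 had libraries that did not overlap, as did 11.6% of all genes downward and 12.7% upward. With the label date as a term the calls of Colec10, Colec11 and Ecm1 were lost in NASH-fib, which left 2 factors lower, Hgf and Angptl6. Over all genes the same term took the calls there from 587 to 119 lower and from 1124 to 549 higher. Without that term the median of the factors was -3.36 and that of all genes -0.02. Both comparisons use the same HSC libraries, and 3.31% of all genes were called lower in both, as were 4 of the 8 factors. Because the factors were chosen with earlier results of these data known, these shares describe the list and do not test it. With other scalings of the libraries the median of all genes moved from 0.18 to between 0.00 and 0.06 in CCl4-fib against HSCs and from -0.11 to between 0.07 and 0.14 in NASH-fib against CCl4-fib, and from -0.02 to between 0.04 and 0.06 in NASH-fib against HSCs.

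Between the fibroblast groups 1 factor, Colec10, was called higher in NASH-fib and 0 were called lower, against 4.97% of all genes higher and 5.66% lower. By edgeR or limma with TMM-scaled counts these counts were the same, and by DESeq2 they were 3 and 1. The libraries of NASH-fib were all above those of CCl4-fib for Hgf, Kitl and Colec10 and all below for Ecm1, a separation seen upward in 17.1% and downward in 22% of all genes. Over all genes limma called 678 higher and 773 lower here, limma on TMM-scaled counts 808 and 696, edgeR 802 and 563, and DESeq2 1518 and 1161.

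**Figure D2:**
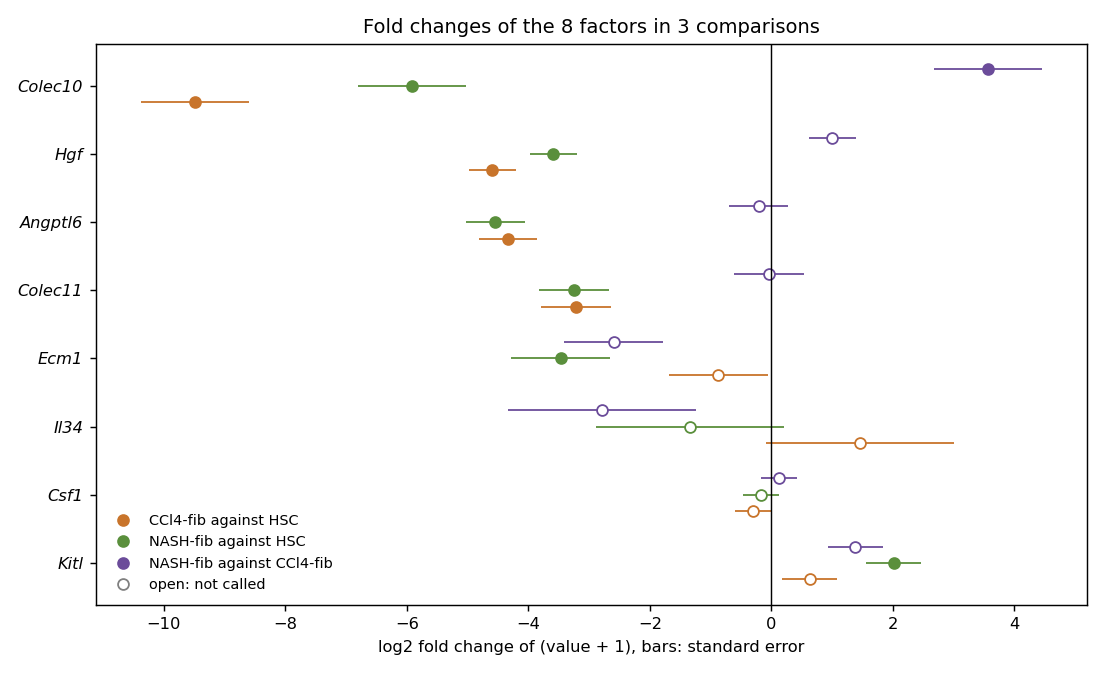
Log2 fold change of each factor in the 3 comparisons, with bars of 1 standard error from the limma fit of 9 libraries. Filled points were called and open points were not. Colec10 spans the widest range, from -9.49 in CCl4-fib to -5.92 in NASH-fib against HSCs, and Csf1 stays near 0.

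Within the label date 11-3, which held 1 library of each group, the log2 differences from HSC 2 to CCl4-fib 1 were -4.29 for Hgf, -11.22 for Colec10, -1.86 for Colec11 and -3.83 for Angptl6. From HSC 2 to NASH-fib 1 they were -2.73, -4.79, -3.06 and -3.70 for the same genes, -4.05 for Ecm1 and 2.28 for Kitl. Each of these had the direction of the whole comparison. The libraries of these genes did not overlap between the groups, so any pair of libraries had to show it. Within 11-4, the differences from HSC 3 to CCl4-fib 2 were -4.27 for Hgf, -7.27 for Colec10, -3.82 for Colec11 and -4.44 for Angptl6. Between fibroblasts, Colec10 was higher in NASH-fib 1 than in CCl4-fib 1 by 6.42 within 11-3, and within 11-7 it was 2.24 and 3.99 higher in NASH-fib 2 and 3 than in CCl4-fib 3. The sign of these Colec10 differences was also fixed, because every NASH-fib library was above every CCl4-fib library. All values within a date compare single libraries without a test. Leaving out both HSC 2 and NASH-fib 1, an alternative chosen after the values were seen, gave the same member counts of 4 lower in CCl4-fib, 5 lower and 1 higher in NASH-fib, and 1 higher between them.

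Per kilobase of exon, the scale on which different genes can be compared, the collectins, Ecm1 and Hgf led in HSCs. The mean level per kilobase was 3576 for Colec11, 2996 for Colec10, 2774 for Ecm1 and 2008 for Hgf, with overlapping libraries, followed after a gap by Angptl6 at 419, Il34 at 155, Csf1 at 146 and Kitl at 58.5. Of the neighbours in this order only Hgf and Angptl6, and Csf1 and Kitl, did not overlap. In CCl4-fib Ecm1 led at 1579 per kilobase, above Colec11 at 359.97 without overlap, and Il34 at 196, Csf1 at 119, Kitl at 95.9, Hgf at 80.8, Angptl6 at 19.8 and Colec10 at 4.82 followed. Colec10 thus stood second in HSCs and last in CCl4-fib, where its libraries held 10 to 55 reads. In NASH-fib the order was Colec11 at 405, Ecm1 at 295, Kitl at 246, Hgf at 173, Csf1 at 130.4, Il34 at 83.7, Colec10 at 74.3 and Angptl6 at 18.6, and the libraries of all neighbours overlapped.

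The genes with patterns most like those of the factors were found by the root mean square difference of centred log2 values over the 9 libraries. Hgf was closest to P2ry14, a receptor for UDP-glucose, at 0.20 log2 units, then to D630033O11Rik at 0.39 and to Bmp5, a bone morphogenetic protein, at 0.43. Kitl was closest to Egfl6 and Lyrm7, both at 0.29, and to Rgs7bp at 0.35. For Colec11 near genes were Chst15 at 0.45 and Tgfbi at 0.48, and for Angptl6 they were Gsg1l at 0.45, Grid1 at 0.50 and Hs3st3b1 at 0.53. Ecm1 was nearest to Irf7, an interferon regulatory factor, at 0.46, and then to H2-Q8 and H2-Q6, near-identical class I genes whose reads cannot be assigned with certainty. Colec10 was nearest to Tmem56 at 0.41 and then to Mup12 and Mup17, members of a hepatocyte-expressed family of near-identical copies, at 0.73 and 1.003. Csf1, nearly level across libraries, was closest to Ctnnb1 and Zc3h11a, both at 0.11, while Il34 had no gene nearer than Izumo4 at 0.66. Among the factors themselves Hgf and Angptl6 were most alike, at 0.77.

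The receptors of these factors were measured in the same libraries. Against HSCs, Met, the receptor of hepatocyte growth factor, was higher in both fibroblast groups, in which its ligand was lower. Among the fibroblast libraries, NASH-fib 1 had the highest values of Met and of Hgf. The Met values were 16.4, 78.6 and 40.6 in the HSC libraries, 323, 565 and 557 in CCl4-fib, and in NASH-fib 1255, 399.9 and 561. Every fibroblast library was above every HSC library, and the log2 fold change was 3.60 (SE 0.60, limma adjusted p = 0.00153) in CCl4-fib and 4.09 (limma adjusted p = 0.00115) in NASH-fib. Sdc1, encoding the co-receptor syndecan 1, rose in CCl4-fib by 2.14, not without HSC 2 (limma adjusted p = 0.0687), CCl4-fib 2 (0.0587) or CCl4-fib 3 (0.0898). Mst1r, which encodes the related receptor RON, was also higher, by 5.97 in CCl4-fib and 4.75 in NASH-fib, from 0 to 4.78 in HSCs. Kit fell in CCl4-fib, from 222, 325 and 362 in HSCs to 2.38, 18.7 and 0 (log2 fold change -6.20, limma adjusted p = 0.000899), and its values in NASH-fib were 44.9, 13.4 and 37.4. The Kit decrease in NASH-fib, -3.34 (limma adjusted p = 0.0409), held in 8 of 20 alternatives and was lost without HSC 1 (adjusted p = 0.0896), HSC 2 (0.0938), HSC 3 (0.111), CCl4-fib 1 (0.0608), NASH-fib 2 (0.138) or NASH-fib 3 (0.0840). With the label date as a term it was -1.70 (limma adjusted p = 0.523).

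Csf1r, also a macrophage marker, had values of 207, 519.9 and 520.1 in the HSC libraries, 65.1, 82.5 and 43.9 in CCl4-fib, and in NASH-fib 84.3, 58.8 and 156. It was lower in both fibroblast groups, by -2.61 (limma adjusted p = 0.00382) and -2.05 (limma adjusted p = 0.0238) on the log2 scale, the latter not without HSC 2 (adjusted p = 0.0756), HSC 3 (0.0858) or NASH-fib 2 (0.0904), with the label date as a term (0.132) or in a fit of the 2 groups alone (0.0602). The 10 macrophage markers summed to 4872 to 15792 in HSCs, 1331 to 1799 in CCl4-fib and 2988 to 6421 in NASH-fib, and the CD45 gate was applied to the fibroblasts alone, in which Ptprc, the gene of CD45, was 8.73 to 25.5 in CCl4-fib and 62.3 to 319 in NASH-fib. Whether Csf1r moved with the share of macrophages was not tested. Ptprz1 was near the floor in HSCs at 9.35, 0 and 5.98 and was 1.59, 10.2 and 15.3 in CCl4-fib, and in NASH-fib 42.1, 69.5 and 40.3. Its increase in NASH-fib, 3.59 (limma adjusted p = 0.0344), was lost without HSC 2 (adjusted p = 0.0841), CCl4-fib 2 (0.0518), or NASH-fib 1 (0.0518), 2 (0.108) or 3 (0.0801), and with the label date as a term (0.0605). Between the fibroblast groups none of these 4 receptors was called by limma, with log2 differences of 0.49 for Met (adjusted p = 0.613), 2.86 for Kit (0.0779), 0.56 for Csf1r (0.492) and 2.69 for Ptprz1 (0.102). DESeq2 called Kit (adjusted p = 0.0434) and Ptprz1 (0.0155) higher in NASH-fib.

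**Figure D3:**
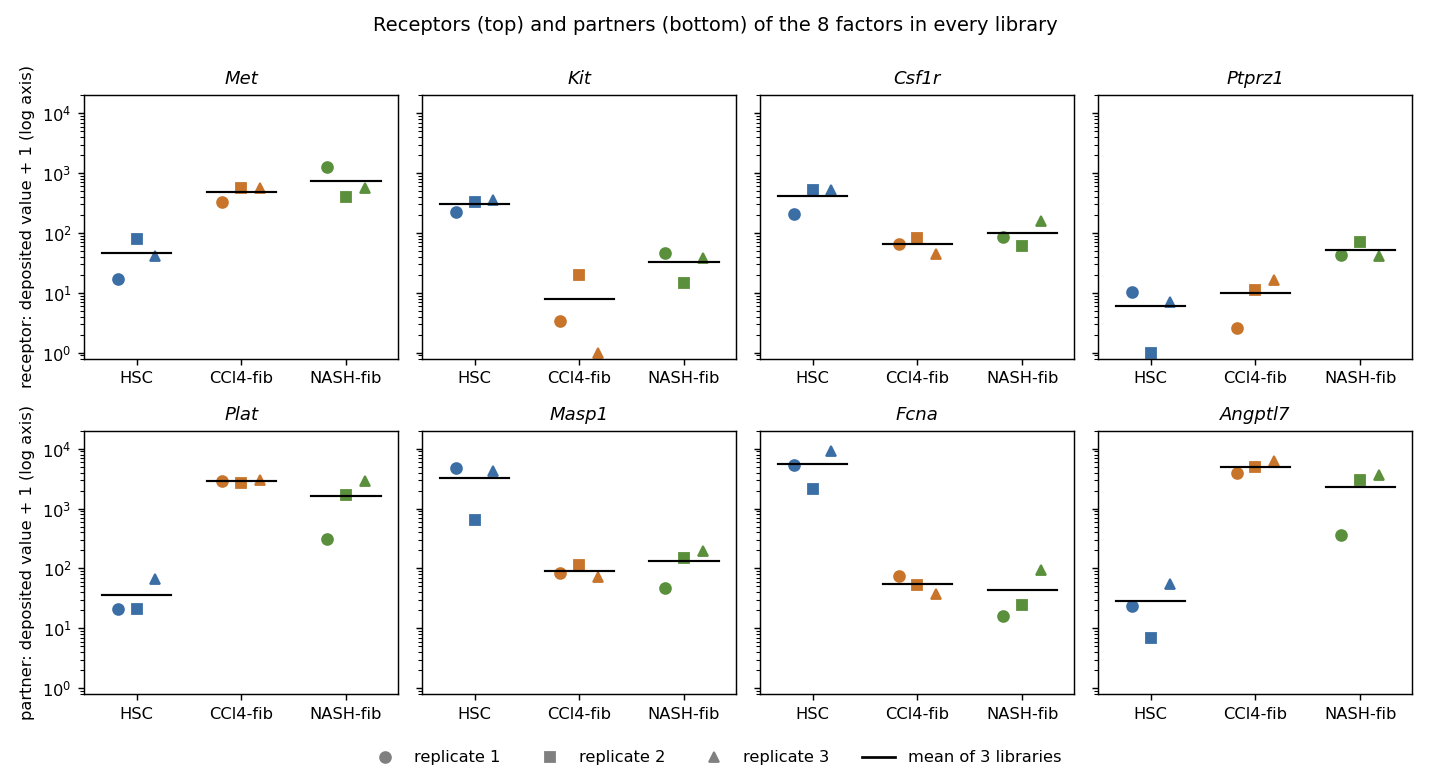
Levels of 4 receptors (top row) and 4 partner genes (bottom row) in every library, as deposited value plus 1 on a log axis. Symbols mark replicates and lines the mean of 3 libraries. Met, Plat and Angptl7 lie higher, and Kit, Csf1r, Masp1 and Fcna lower, in all fibroblast libraries than in HSCs.

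The lists of partners held 43 genes, of which 36 passed the filter. In CCl4-fib against HSCs limma called 15 higher and 11 lower, in NASH-fib 12 higher and 6 lower, and between the fibroblast groups 4 higher and 3 lower. The shares of all tested genes called higher and lower were 16.2% and 11.7%, 8.23% and 4.3%, and 4.97% and 5.66% in the same order. These lists were also chosen with earlier results of these data known, so the shares describe them and do not test them. Of these calls, 20 of 26, 11 of 18 and 0 of 7 held in every alternative that tested the gene. Among the 8 proteases that can cleave the precursor of hepatocyte growth factor, 5 were tested, and Plat, encoding tissue plasminogen activator, was 19.9, 20.4 and 65.8 in the HSC libraries, 2918, 2635 and 2977 in CCl4-fib, and in NASH-fib 309.9, 1695 and 2836. Plat rose by 6.52 (limma adjusted p = 0.000156) in CCl4-fib and by 5.21 (limma adjusted p = 0.000961) in NASH-fib. Klkb1, encoding plasma prekallikrein, fell by 5.17 in CCl4-fib. The increase of Plau, encoding urokinase, in CCl4-fib (1.87, limma adjusted p = 0.0480) held in 4 of 20 alternatives and, of the fits without 1 library, in those without HSC 2 and NASH-fib 1, with an adjusted p up to 0.165 in the others.

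In the lectin pathway 6 of 10 tested genes fell and 3 rose in CCl4-fib, and 3 fell and 3 rose in NASH-fib. Masp1, whose protease travels with the collectins, was 4751, 635 and 4184 in the HSC libraries, 83.3, 114 and 69.7 in CCl4-fib, and in NASH-fib 46.2, 146 and 198. Fcna, encoding the lectin ficolin A, was 5249.9, 2111 and 9072 in HSCs and no more than 91.4 in any fibroblast library. Log2 fold changes in CCl4-fib and NASH-fib were -4.72 and -4.39 for Masp1 and -6.47 and -7.14 for Fcna, all called. The proteases and lectins Masp2, Mbl1 and Mbl2 and the complement regulator Cfp fell by 3.09, 4.02, 4.62 and 3.34 in CCl4-fib. The genes that rose in both groups were C3, the central complement component, by 3.05 and 2.96, and Colec12, a membrane-bound scavenger receptor with a collectin domain, by 3.78 and 3.03. C4b rose by 2.61 in CCl4-fib and C2 by 1.60 in NASH-fib, and Cfp fell there by 2.62. Some of these calls were lost under alternatives. That of Mbl2 was lost without CCl4-fib 1 (limma adjusted p = 0.0579) or 2 (0.0587), that of C2 without NASH-fib 3 (0.0660) or with the label date as a term (0.114), and that of C4b without HSC 1 (0.0518) or 2 (0.116) or CCl4-fib 1 (0.123), 2 (0.103) or 3 (0.0510). The Cfp call in NASH-fib was lost without any 1 library other than HSC 1 and NASH-fib 3, with an adjusted p up to 0.128, and with the label date as a term (0.0664). Masp2 shares 1742 exon bases with Tardbp, and reads in that stretch cannot be assigned to 1 gene.

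The angiopoietin-like family went in different directions. Angptl7 rose from 5.82 to 53.8 in HSCs to 3943 to 6159 in CCl4-fib (log2 fold change 7.91, limma adjusted p = 0.000163) and to 356 to 3601 in NASH-fib (6.26, limma adjusted p = 0.00105). Angptl1 rose in both groups by 3.71 and 3.88, Angptl4 rose in CCl4-fib by 3.91, and Angptl2 fell in NASH-fib by 2.05, though not with the label date as a term (limma adjusted p = 0.131). The Angptl1 calls were lost without HSC 3 (limma adjusted p = 0.0591 and 0.0981), the first also without CCl4-fib 1 (0.0934) or 2 (0.0873), the second also without NASH-fib 1 (0.0549), 2 (0.0622) or 3 (0.0902). Between the fibroblasts Klkb1 and Mbl1 were called higher in NASH-fib, by 3.35 and 2.99, and Angptl4 and Angptl8 lower, by -2.67 and -3.42. Without HSC 1, any CCl4-fib library, NASH-fib 1 or NASH-fib 3 these 4 calls were each lost, with limma adjusted p-values of 0.0510 to 0.146. In NASH-fib 1, 2 and 3 Klkb1 was 148, 8.91 and 99.3 and Mbl1 was 135, 19.6 and 143. The hepatocyte marker Alb was 14897, 1787 and 7894 there, and 617 to 829 in CCl4-fib. The part of hepatocytes in the Klkb1 and Mbl1 differences was not tested.

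Among the partners of Ecm1, genes of matrix proteins rose. Fbln1, encoding fibulin 1, rose from 11.7 to 16.7 in HSCs by 5.79 in CCl4-fib (limma adjusted p = 1.82e-05) and 5.36 in NASH-fib (limma adjusted p = 3.74e-05). Thbs1, encoding thrombospondin 1, rose by 4.51 and 3.34, Hspg2, encoding perlecan, by 1.38 in CCl4-fib (limma adjusted p = 0.0683 without CCl4-fib 2 and 0.0764 with the label date as a term), and Ecm2 by 2.05 in NASH-fib. Adamts1 fell by 1.87 in CCl4-fib. NASH-fib exceeded CCl4-fib in Ecm2 by 2.18 and was lower in Hspg2 by -1.60, and both calls were lost without CCl4-fib 2 (limma adjusted p = 0.0840 and 0.0992) or NASH-fib 3 (0.0616 and 0.0591), that of Ecm2 also without CCl4-fib 3 (0.0615) and that of Hspg2 also without CCl4-fib 1 (0.0591).

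Markers of other liver cells also differed between the groups, in both directions. For the counts of called markers, the shares over all genes against HSCs were 11.7% lower and 16.2% higher in CCl4-fib. In NASH-fib they were 4.3% and 8.23%. The 10 sinusoidal endothelial markers summed to 8175 to 16647 in HSCs, 281 to 376 in CCl4-fib and 1326 to 4278 in NASH-fib, and 10 of 10 were called lower in CCl4-fib and 7 in NASH-fib. The hepatocyte list summed to 29679 to 62837 in HSCs, with 7 of 10 markers called lower in CCl4-fib and 0 in NASH-fib. Of the macrophage list 8 of 10 were called lower in CCl4-fib and 3 in NASH-fib, while Cd14 was called higher in CCl4-fib, by 4.16. The lists of portal fibroblast markers (6 genes) and mesothelial markers (5 genes measured) were near the opposite, at 197 to 240 and 154 to 574 in HSCs against 6409 to 14490 and 5375 to 17927 in the fibroblasts, and all of their genes were called higher in both groups. Smooth muscle markers summed to 99.0 to 172 in HSCs, where Casq2 was at 0, and to 2694 to 18291 in fibroblasts. Cholangiocyte markers summed to 72.5 to 226 in HSCs and 3488 to 11854 in fibroblasts. Spp1 alone held 938 to 2421 of the sums in CCl4-fib and 4847 to 10730 in NASH-fib. Krt19 held 771 to 2699 in CCl4-fib, where Epcam, at 0.85 to 7.94, and Cftr, at 0 to 28.1, were not called. Of the 6 cholangiocyte genes, 4 were called higher in CCl4-fib and 6 in NASH-fib. Neutrophil markers reached 1019 in HSCs, 48.6 in CCl4-fib and 5667 in NASH-fib, and lymphocyte markers 51.4, 11.4 and 220.2, with Cd3e, Cd3d and Nkg7 at 0 in CCl4-fib. The part of these cells in the levels of the 8 factors and of the partner genes was not tested. The sum of the 8 factors was 29262 to 33162 in HSCs, 2763 to 6424 in CCl4-fib and 2990 to 4645 in NASH-fib, without overlap between HSCs and fibroblasts.

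**Figure D4:**
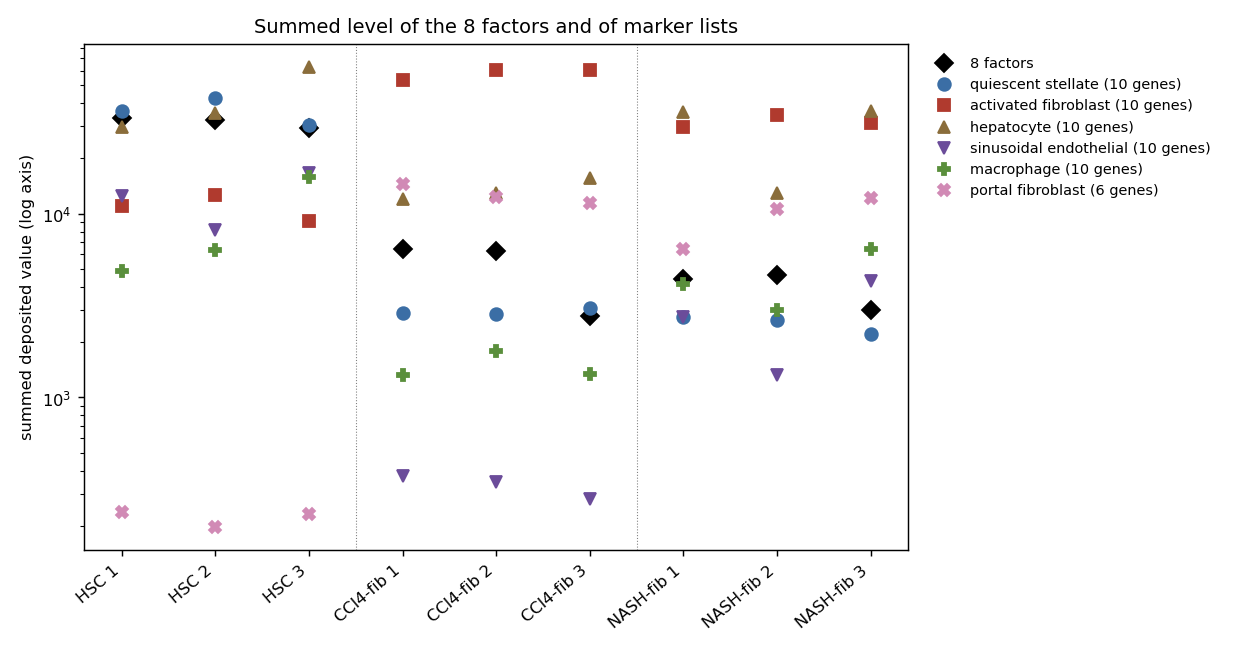
Summed deposited value of the 8 factors and of 6 marker lists in each library, on a log axis. The factors and the quiescent stellate markers are high in the 3 HSC libraries and low in the 6 fibroblast libraries, while activated and portal fibroblast markers run the other way. Sinusoidal endothelial markers are lowest in CCl4-fib, at 281 to 376.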

How the data were processed

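Per the study's methods, RNA of pooled cells was amplified with the SMARTer kit, sequenced single-end on a GAIIx, and aligned to mm10 with STAR. The submitters' processing notes also name CASAVA. Per the file header, the authors counted reads on exons of RefSeq genes with HOMER, on both strands and with at most 3 reads per position. They deposited a normalized signal, the counts times 1 factor per library, set over 10 libraries, of which 9 were analysed here. The values of each of the 9 libraries summed to the same total, 4.47e+06. The factor thus equalised the reads on genes and made no further correction for composition. Dividing by the value of 1 read, estimated from the low values of each library, gave whole reads for 100% of values (tolerance 0.1 reads). Depths bear on genes at a few reads, and 3 reads were worth 2.38 to 4.37 units.

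Genes with enough recovered reads (filterByExpr of edgeR 4.0.16, minimum count 10) were tested on log2(value + 1) with limma 3.58.1 (trended empirical Bayes, R 4.3.3), in 1 fit of 9 libraries, with Benjamini-Hochberg adjustment over all 13651 genes. A fold change on this scale understates that of low genes. Groups came from the deposited sample labels. The p-values measure the spread between pools. Alternatives were the edgeR quasi-likelihood test and DESeq2 1.42.0 on recovered reads, TMM-scaled log2 CPM, other filters and pseudocounts, 2-group fits, terms for replicate number or label date, and leaving out each library. The linear model was tested on simulated data.

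The members and lists were chosen with earlier results of these data known. Named were all 8 members, the receptors Met, Kit, Csf1r and Ptprz1, list genes called in at least 1 comparison, and the 3 genes nearest to each member, except some that are not reported here. Overlapping exons are given above for Hgf, Angptl6 and Masp2 only. Other named genes also shared exon bases. On the same strand Klkb1 shared 423 with Gm45753, C2 225 with Gm20547 and Ecm1 63 with Mir7014. On the other strand Angptl1 shared 271 with Gm37802, Thbs1 110 with Gm29233 and Il34 75 with Gm15895. This is not a full list. Promoters came from RefSeq tables, which held 6 of the 8 members.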

Additional observations from a re-analysis of the deposited data

Results flagged for a closer look

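The response of Colec10 against HSCs differed between the fibroblast groups. The test of that difference, the contrast of NASH-fib with CCl4-fib, gave a log2 fold change of 3.57 (SE 0.89, limma adjusted p = 0.0317), with values of 767, 57.9 and 197 in NASH-fib 1, 2 and 3 and of 7.94, 46.8 and 11.45 in CCl4-fib. Every NASH-fib library was above every CCl4-fib library. The call was lost in 6 of the 9 fits without 1 library, where the adjusted p ranged from 0.00940 to 0.112 and the log2 fold change from 2.63 to 4.48.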

How the results depend on the processing

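The 8 factors in 3 comparisons under 20 alternatives gave 480 values, of which 444 kept their direction and their side of the threshold. All calls in CCl4-fib against HSCs held in every alternative. Higher factors in NASH-fib against HSCs numbered 1, and 0 to 1 when single libraries were left out (0 without HSC 1). Lower factors there numbered 5, but 2 with the label date as a term, where Colec10 (-4.70, adjusted p = 0.0531), Colec11 (-2.92, 0.0911) and Ecm1 (0.209) lost their calls. Over all genes the lower calls in that comparison went from 587 to 119 with this term. Between the fibroblast groups the count of higher factors was 1 and became 3 with DESeq2 (with Hgf at 0.0299 and Kitl at 0.0230), 0 with 2 groups only (Colec10 at 0.0565) and 0 to 1 without single libraries. The count of lower factors was 0, and 1 with DESeq2 (Ecm1 at 0.0108) and 0 to 1 without single libraries.

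The replicate numbers did not pair the samples, since the correlations of deviations between libraries of the same number ran from -0.47 to 0.51. With the number as a replicate block, 0 factors were higher in NASH-fib than in CCl4-fib (Colec10 adjusted p = 0.0622), no other member call changed, and 7 of the partner calls named were lost.

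These values reversed, none of them called. Colec11 in NASH-fib against CCl4-fib was 0.29 by edgeR, 0.27 by DESeq2, 0.15 with TMM, 0.17 with the label date, 0.33 without both HSC 2 and NASH-fib 1 and -0.63 to 0.33 without single libraries. Angptl6 there was 0.11 by edgeR, 0.094 by DESeq2, 0.048 with the label date and -0.49 to 0.25 without single libraries. Csf1 there was -0.014 with the label date and -0.0047 to 0.25 without single libraries, and Csf1 against HSCs was 0.032 without both. Il34 in NASH-fib against HSCs was -2.76 to 0.55, and Ptprz1 in CCl4-fib -0.13 to 1.70, without single libraries, and Ptprz1 was -0.13 without both. The cause was not tested.

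Over all genes, calls between the fibroblast groups ranged from 113 to 794 higher and 72 to 1013 lower without single libraries, and counts of called partner genes there from 0 to 10 higher and 0 to 4 lower over all alternatives.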
